A study of Mus musculus with 6 samples.

Results

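The colony-stimulating factors Csf1, Csf2 and Csf3 and their receptor genes Csf1r, Csf2ra, Csf2rb, Csf2rb2 and Csf3r were examined in murine bone marrow-derived macrophages (BMDMs). The genes were taken by name from the annotation of the arrays, and 8 of 8 were found, out of 34844 gene names in all. They were read by 15 of the 55681 probes, with 24 spots for the 3 ligands and 9 spots for the 5 receptor genes. RNA was labelled with the dye Cy3 and hybridised to 6 single-colour arrays, 2 for each of 3 groups. The BMDMs came from wild-type female C57BL/6 mice, aged 6 to 8 weeks by the labels, and were grown for 7 days in L929-conditioned medium. The untreated group received no stimulus. The LPS group was stimulated for 4 hours with lipopolysaccharide, a bacterial ligand of the receptor TLR4, at 100 ng per ml by the series design. The LPS+inhibitor group was given 10 µM HBX-41108, a small-molecule inhibitor of the deubiquitinase USP7, for 30 minutes before the same stimulation. The comparison of the stimulated groups asks how USP7 inhibition changes transcripts that LPS induces. The labels call the 2 samples of a group independent experiments, and mention no inhibitor without LPS and no solvent control.

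Colony-stimulating factors are secreted proteins that keep myeloid cells alive and direct their growth and maturation. CSF1 acts on macrophages through the receptor tyrosine kinase encoded by Csf1r, CSF2 (GM-CSF) through a specific alpha chain encoded by Csf2ra with a shared beta chain, and CSF3 (G-CSF) through the receptor encoded by Csf3r, best known on neutrophils. In mice the beta chain is encoded by Csf2rb, which also serves interleukin-3 and interleukin-5, and a close relative, Csf2rb2, encodes a chain specific to interleukin-3. L929-conditioned medium is used for such cultures because it contains CSF1, and the study's methods describe replating in medium without it before the experiment. Stimulated macrophages are themselves known to make all 3 factors.

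All values are quantile-normalized log2 intensities, and a difference of 1 is a doubling. A change was called at an adjusted p under 0.05 from limma, a linear model fitted across all probes with Benjamini-Hochberg adjustment. Each gene was represented by its brightest probe, and the intervals are 95% confidence intervals of the log2 difference. In these bulk samples, fewer cells of a type and less RNA per cell cannot be told apart.

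By their brightest probes, Csf1 and Csf2 were called higher after LPS, and Csf2 but not Csf1 was called lower with the inhibitor. The Csf2 call with the inhibitor was lost in a fit on only the 4 arrays of those groups. A pair of dimmer Csf1 probes differed by -1.31 and -1.52 between LPS+inhibitor and LPS, without a call. Of the 8 genes, 2 were called higher and 1 lower in LPS minus untreated, where 7.98% of all gene names were called higher and 12.8% lower. In LPS+inhibitor minus LPS, 0 of 8 were called higher and 1 was called lower, against 5.51% and 4.28% of all gene names. By unadjusted p under 0.05 in limma, 4989 gene names were higher in that comparison and 4067 lower. In LPS+inhibitor minus untreated, 2 were called higher and 0 lower, against 6.15% and 8.72%, and 4239 and 5778 gene names passed an unadjusted p under 0.05. With 8 genes, these shares set the count of calls beside the background and say nothing particular about the family.

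**Figure D1:**
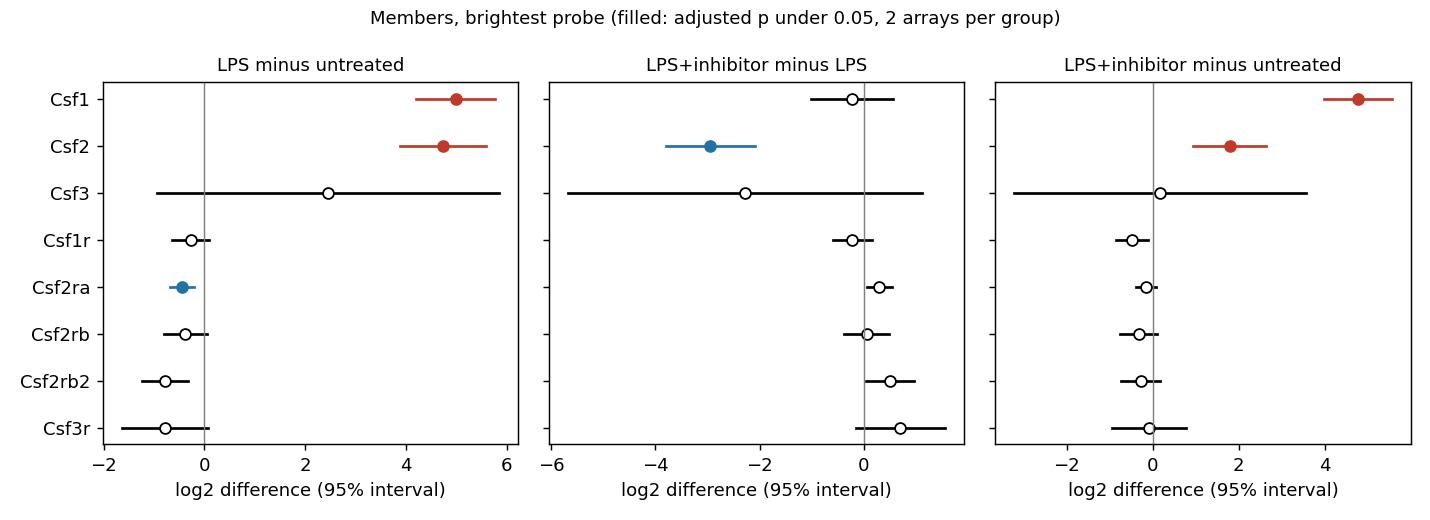
Log2 differences of the 8 genes in 3 comparisons, by each gene's brightest probe, with 95% confidence intervals from limma (2 arrays per group). Filled symbols mark adjusted p under 0.05, red for higher and blue for lower, and Csf2 is the single gene with a filled symbol in LPS+inhibitor minus LPS, at -2.95.

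Csf1, the factor that BMDMs are grown on, was read best by a probe of its RefSeq transcript (mm9, chr3:107544333-107544392) printed in 10 spots. Its log2 intensity was 8.10 and 8.46 in the untreated arrays, 13.16 and 13.38 in the LPS arrays, and 12.71 and 13.38 in the LPS+inhibitor arrays. Both stimulated groups thus lay above both untreated arrays and overlapped each other. The LPS minus untreated difference was 4.99, a 31.7-fold rise (limma adjusted p = 0.00395). LPS+inhibitor minus LPS was -0.22 with an interval from -1.01 to 0.56 (limma adjusted p = 0.743), so a fall of up to about 1 log2 unit was not resolved. This difference turned to 0.11 when the first LPS+inhibitor array was left out. LPS+inhibitor minus untreated was 4.76 (limma adjusted p = 0.00644), and Csf1 kept its call in that comparison and in LPS minus untreated under each of the 13 alternative settings. Averaging all Csf1 probes, 1 of them near background throughout, changed the 3 differences to 3.13, -0.78 and 2.35.

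The other Csf1 probes moved by different amounts. A pair of probes that overlap each other, and so share sequence, were annotated to transcript variant 3 of Csf1 (mm9, chr3:107548521-107548609 for both together). The brighter of them gave 5.94 and 6.16 untreated, 9.62 and 9.97 with LPS, and 8.00 and 8.97 with LPS+inhibitor. The dimmer gave 5.81 and 6.01, 9.49 and 9.81, and 7.66 and 8.60 in the same order. In both, the LPS+inhibitor arrays lay between the other groups and overlapped neither of them. LPS raised the signal of these probes by 3.75 and 3.74 (limma adjusted p = 0.00891 and 0.00846). LPS+inhibitor minus LPS was -1.31 and -1.52, which did not pass the threshold (limma adjusted p = 0.136 and 0.0947). A further Csf1 probe stayed near background throughout.

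Set against each other within each array, the probes separated the groups. The log2 difference between the brightest Csf1 probe and the brighter variant 3 probe was 2.15 and 2.31 in the untreated arrays, 3.54 and 3.40 with LPS, and 4.70 and 4.41 with LPS+inhibitor. The groups did not overlap, so in these arrays the signal of the variant 3 probe differed by less between LPS and untreated, and was lower relative to the other probe with the inhibitor. The within-array difference was 1.09 larger in LPS+inhibitor than in LPS. With 2 arrays per group that do not overlap, an exact 2-sided permutation test can only give its smallest value, p = 0.333, so it adds nothing to the order of the values. The order of the 3 groups was the same after 75th percentile scaling, after normexp background correction and in the deposited table, and with the dimmer probe. The alternative transcripts of Csf1 are known to encode secreted and membrane-bound forms, and which form each probe reads was not determined.

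Csf2 encodes GM-CSF, a product of activated macrophages and T cells. Its single probe (mm9, chr11, starting at 54060772), printed in 10 spots, gave log2 intensities of 2.39 and 3.14 untreated, 7.30 and 7.70 with LPS, and 4.50 and 4.61 with LPS+inhibitor. The groups did not overlap, with both LPS+inhibitor arrays between the others. It was not well above background on either untreated array, was so on both LPS arrays, and on 1 of the 2 LPS+inhibitor arrays. On the quantile-normalized scale, Csf2 was at least 12-fold higher with LPS than untreated (limma adjusted p = 0.00445). A bound of this kind divides the geometric mean of the bright group by that of the dim group, with each dim array put at the lowest signal of any probe well above background there, unless its own signal was higher. It holds for that scale alone, since the log2 difference of Csf2 was 1.70 with normexp and 2.89 in the deposited table, both below the bound and both still called.

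With the inhibitor, Csf2 was lower than with LPS alone, by a log2 difference of -2.95 with an interval from -3.79 to -2.10 (limma adjusted p = 0.0215). The size is uncertain, because the second LPS+inhibitor array was not well above background. This call rests on the fit that pools the spread of all 6 arrays. It was lost with only the 4 arrays of the compared groups (limma adjusted p = 0.0561, also the smallest of any gene name in that fit) and whichever of the 6 arrays was dropped (0.0561 to 0.0838), while the difference stayed between -3.15 and -2.74. Its size shrank to -1.39 with normexp and was -2.18 in the deposited table, with the call kept in both. Csf2 was also called higher in LPS+inhibitor than in untreated arrays (limma adjusted p = 0.0376). No bound is given for this difference, because the second LPS+inhibitor array was not well above background. That last call was lost with normexp, where the log2 difference was 0.31 (limma adjusted p = 0.121). It was lost in the deposited table, at 0.71 (limma adjusted p = 0.105), with 4 arrays (limma adjusted p = 0.0812) and whichever array was dropped.

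Csf3 encodes G-CSF, the factor that drives neutrophil production. Its probe (mm9, chr11:98564614-98564673), a single spot, gave 2.69 and 3.18 untreated, 3.74 and 7.04 with LPS, and 2.59 and 3.62 with LPS+inhibitor. It was well above background on the second LPS array alone, so the group mean rests on that array. None of the 3 comparisons was called for Csf3 (limma adjusted p = 0.317, 0.424 and 0.995). No fold or bound is given for the uncalled LPS minus untreated difference, since the second LPS array alone had Csf3 signal well above background. That log2 difference was 0.72 with normexp and 1.15 in the deposited table, uncalled in both.

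**Figure D2:**
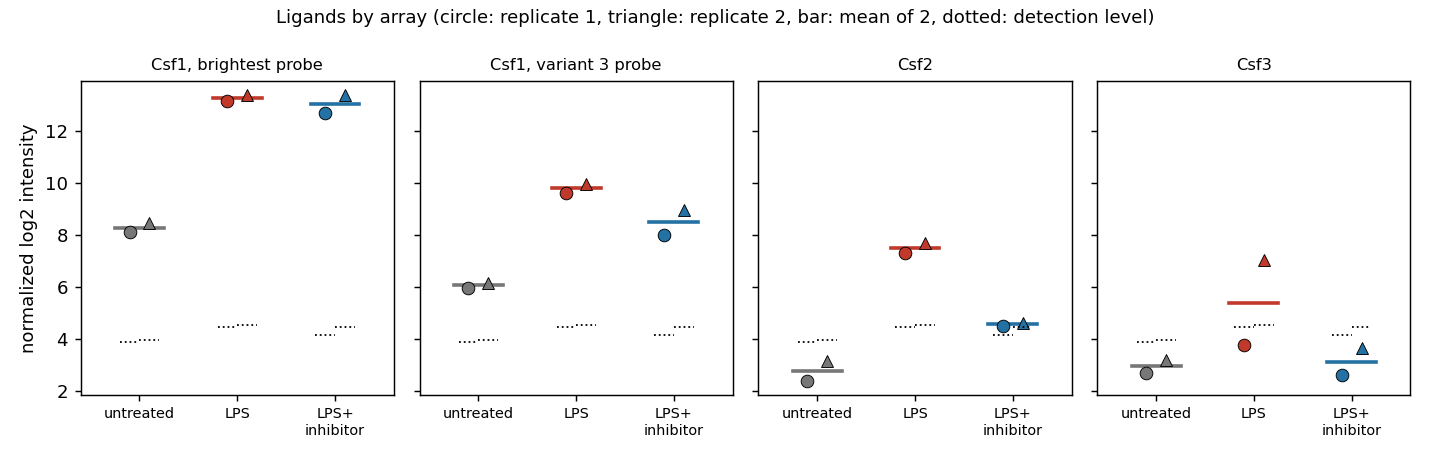
Normalized log2 intensity of the ligand probes on each of 6 arrays, with circles for replicate 1, triangles for replicate 2, bars for the mean of 2 arrays, and dotted lines for the lowest signal of any probe well above background on that array. Csf1 is high in both stimulated groups, Csf2 falls from 7.30 and 7.70 with LPS to 4.50 and 4.61 with LPS+inhibitor, and Csf3 lies clearly above the dotted line on 1 LPS array, at 7.04.

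The second LPS array also carried the most signal of some neutrophil markers. S100a9 was 9.54 on the first LPS array and 12.38 on the second, Ngp was 3.60 and 7.09, and Ltf was 3.15 and 7.89. These 3 markers, and S100a8, Camp, Elane and Mmp8 with them, were higher in replicate 2 than in replicate 1 in every group, with 7.68 and 10.72 for S100a9 in the untreated arrays and 8.35 and 11.57 in the LPS+inhibitor arrays, while Mpo, at 8.65 and 6.67 on the LPS arrays, was lower in replicate 2 of every group. Of the 9 neutrophil and precursor markers, 7 and 8 were well above background on the untreated arrays, 6 and 8 on the LPS arrays, and 6 and 8 on the LPS+inhibitor arrays. Their summed normalized intensity was 8220 and 12325 untreated, 7274 and 15576 with LPS, and 10531.0 and 15730.3 with LPS+inhibitor. The brightest probe of the list was that of Mmp8 on 5 arrays and that of S100a9 on the second LPS array, which does not rank their transcripts, and Cxcr2, a receptor of mature neutrophils, was not well above background anywhere. The part of these markers in the Csf3 value was not tested.

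Markers of the cultured cells themselves were strong. All 8 macrophage markers, among them Cd68, Lyz2 and Adgre1, were well above background on each of the 6 arrays. Their summed normalized intensity ran from 430815 to 550048, with the probe of Cd68, Cd14 or Lyz2 the brightest on each array. Some of these genes moved with the treatments, since Cd14 was called higher (1.69) and Itgam lower (-0.66) in LPS minus untreated (limma adjusted p = 0.00518 and 0.0233). In LPS+inhibitor minus LPS, Fcgr1 and Cd14 were called lower, at -1.6 and -1.31 (limma adjusted p = 0.0317 and 0.0184), calls that were lost in the fit with only the 4 arrays of these groups. Of 6 fibroblast markers at most 2 were well above background on an array, with Dcn on 5 of 6 arrays and Col1a1, Col3a1, Lum and Pdgfra on none. Of 4 erythroid markers at most 1 was, with Hbb-b1 on no array. The dendritic cell list had 2 or 3 of 6 markers well above background, with Itgax the brightest and Flt3, Xcr1 and Cd209a on no array. Zbtb46 of that list was well above background on the 4 stimulated arrays alone, and at least 5.65-fold higher with LPS than untreated (limma adjusted p = 0.00435). The mast cell and basophil list had 2 or 3 of 6, without Fcer1a and Mcpt4 on any array, and the lymphocyte list 3 or 4 of 6, with Cd3e the brightest and without Cd3g on any array.

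For the 3 genes called in LPS minus untreated, the 250 bases before the annotated start are shown, though for Csf2ra that call depends on the processing. They come from RefSeq (GRCm38.p6), whose promoter table held 5 of the 8 genes, and are given in the direction of the gene with matches to 4 searched motifs in capitals. All 3 lie on the minus strand, Csf1 at chr3:107760470-107760719, Csf2 at chr11:54249900-54250149 and Csf2ra at chr19:61228419-61228668.
Csf1: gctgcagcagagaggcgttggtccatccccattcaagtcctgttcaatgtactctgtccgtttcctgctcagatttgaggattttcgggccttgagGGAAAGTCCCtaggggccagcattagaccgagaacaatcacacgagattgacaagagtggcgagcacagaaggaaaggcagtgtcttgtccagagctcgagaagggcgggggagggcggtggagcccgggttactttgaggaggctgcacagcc
Csf2: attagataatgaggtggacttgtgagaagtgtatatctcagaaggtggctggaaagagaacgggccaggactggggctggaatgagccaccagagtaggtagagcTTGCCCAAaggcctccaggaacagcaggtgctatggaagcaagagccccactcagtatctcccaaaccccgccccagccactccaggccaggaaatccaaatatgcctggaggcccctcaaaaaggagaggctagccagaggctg
Csf2ra: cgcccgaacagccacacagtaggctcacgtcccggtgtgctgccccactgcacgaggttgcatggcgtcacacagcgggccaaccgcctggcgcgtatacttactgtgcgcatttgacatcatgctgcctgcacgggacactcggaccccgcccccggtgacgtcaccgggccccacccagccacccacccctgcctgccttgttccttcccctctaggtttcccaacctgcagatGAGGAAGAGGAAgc
The motifs were the NF-kB consensus, TTGCNNAA of C/EBP factors, TGANTCA of AP-1 and the core GAGGAA of PU.1, each searched on both strands over 300 bases that include 50 bases after the start. In Csf1 the capitals mark 1 NF-kB consensus match, read on the opposite strand, from 154 to 145 bases before the start. In Csf2 they mark 1 C/EBP match from 145 to 138 bases before it. In Csf2ra they mark 2 adjoining PU.1 cores within the last 14 bases. No 2 matches overlapped, and none lay after a start. Of all 32851 promoters in the table, 8.46% held the NF-kB consensus, 10.8% the C/EBP motif, 7.81% the AP-1 motif and 28.3% the PU.1 core. A match describes letters in these windows and not binding, and whether these starts are used in BMDMs was not measured.

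In LPS minus untreated, the receptor genes differed far less than Csf1 and Csf2. Each receptor gene was well above background on all 6 arrays by its brightest probe, and 1 of 5 was called in LPS minus untreated, 0 of 5 in either other comparison. By quantile normalization all 5 had lower means with LPS than untreated. After 75th percentile scaling, which moved the median LPS minus untreated difference of all gene names from 0.00 to 0.40, Csf1r, Csf2ra and Csf2rb turned positive, at 0.31, 0.15 and 0.24. Taken relative to that median, the 5 receptor genes were lower by 0.09 to 0.61 on the log2 scale. That median includes dim gene names, since 15621 of 34844 were well above background on all 6 arrays. It is therefore no reference for bright genes alone.

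Csf1r, the receptor of CSF1 and interleukin-34 and a hallmark of macrophages, was read by 3 probes. The brightest gave 18.05 and 17.80 untreated, 17.68 and 17.64 with LPS, and 17.56 and 17.31 with LPS+inhibitor. The groups stood in that order without overlap, but LPS minus untreated was -0.27 (limma adjusted p = 0.316) and LPS+inhibitor minus LPS was -0.22 (limma adjusted p = 0.492). LPS+inhibitor minus untreated was -0.49 (limma adjusted p = 0.110), called with normexp alone of the 13 settings (0.0223). It was -0.01 after 75th percentile scaling, but -0.45 relative to the median of all gene names, dim ones included, which that scaling put at 0.44. The other probes gave 14.68 and 14.52, 14.22 and 13.81, and 13.96 and 13.78 for the brighter, and 12.98 and 12.80, 12.75 and 12.18, and 12.46 and 12.15 for the dimmer. In that order, these probes differed by -0.58 and -0.42 in LPS minus untreated and by -0.15 and -0.16 in LPS+inhibitor minus LPS. In LPS+inhibitor minus untreated they differed by -0.73 and -0.58. No Csf1r probe was called in any comparison.

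Csf2ra encodes the alpha chain that binds GM-CSF. Its probe (mm9, chr19:61300336-61300395) gave 15.51 and 15.59 untreated, 15.01 and 15.19 with LPS, and 15.38 and 15.41 with LPS+inhibitor. The LPS arrays lay below all others, and the LPS+inhibitor arrays lay between the groups. LPS minus untreated was -0.45, with an interval from -0.69 to -0.21, and was called lower (limma adjusted p = 0.0406). The call depends on the processing, since the difference was 0.15 after 75th percentile scaling (0.444) and the call was lost in the deposited table (0.248) and with 4 arrays (0.0824). It was also lost without either untreated array (0.123 and 0.174), the first LPS array (0.100) or either LPS+inhibitor array (0.0824 for both). LPS+inhibitor minus LPS was 0.29 (limma adjusted p = 0.151).

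Csf2rb, the beta chain shared by the GM-CSF, interleukin-3 and interleukin-5 receptors, gave 15.18 and 15.30 untreated, 14.84 and 14.88 with LPS, and 15.11 and 14.72 with LPS+inhibitor. The LPS+inhibitor arrays lay on either side of the LPS arrays. Neither LPS minus untreated, -0.38 (limma adjusted p = 0.217), nor LPS+inhibitor minus LPS, 0.05 (limma adjusted p = 0.931), was called. Its relative Csf2rb2 gave 15.65 and 15.51, 14.88 and 14.72, and 15.49 and 15.10 in the same order of groups. By this probe the LPS arrays were the lowest of the 6. LPS minus untreated was -0.78 and just missed the threshold (limma adjusted p = 0.0509), and it passed in 6 of the 13 alternative settings, among them with the replicate number as a block (0.0305), while LPS+inhibitor minus LPS was 0.49 (limma adjusted p = 0.191). A further probe of each gene was called in no comparison. In LPS minus untreated it differed by -0.02 for Csf2rb and -0.36 for Csf2rb2 (limma adjusted p = 0.998 and 0.395). That Csf2rb2 probe gave 12.91 and 12.90 with LPS and 13.40 and 12.83 with LPS+inhibitor, so its lowest array was not an LPS array.

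Csf2rb and Csf2rb2 are close relatives, and their brightest probes (mm9, chr15:78181168-78181227 and chr15:78113126-78113185) share a near-identical stretch. Of 30 bases aligned without gaps, 27 were the same. The stretches are shown because the probes may read each other's transcripts, with the 3 differing bases in capitals.
Csf2rb: ggcagatcaaAtgtCccttggtctCtgttc
Csf2rb2: ggcagatcaaGtgtTccttggtctAtgttc
Counted from 1 at the first base shown, with the Csf2rb base first, the differences were A11G, C15T and C25A. How much of either signal comes from the other gene was not tested. No member probe shared an exact run of 20 bases with a probe of another gene name except that of Csf3r, with 2.

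Csf3r, the G-CSF receptor, was read by a single spot (mm9, chr4:125721478-125721537). It gave 14.73 and 14.40 untreated, 13.81 and 13.74 with LPS, and 14.88 and 14.07 with LPS+inhibitor. The LPS arrays were again the lowest, and the LPS+inhibitor arrays spread across the untreated ones. LPS minus untreated was -0.79 (limma adjusted p = 0.207) and LPS+inhibitor minus LPS was 0.70 with an interval from -0.16 to 1.56 (limma adjusted p = 0.316). None of the 13 alternative settings gave a call for Csf3r, though LPS+inhibitor minus LPS ran from 0.30 to 1.10 over them.

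**Figure D3:**
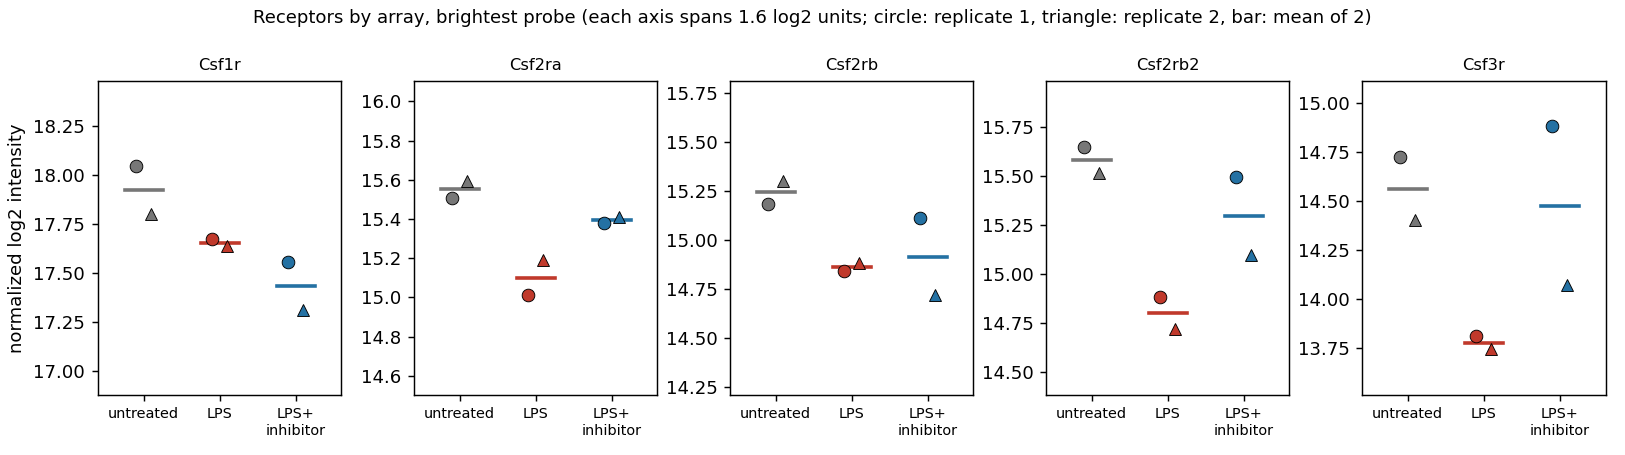
Normalized log2 intensity of the brightest probe of each receptor gene on each of 6 arrays, with circles for replicate 1, triangles for replicate 2 and bars for the mean of 2 arrays. Every vertical axis spans the same range of log2 units but starts at a different level, and the LPS arrays are the lowest for Csf2ra, Csf2rb2 and Csf3r.

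**Figure D4:**
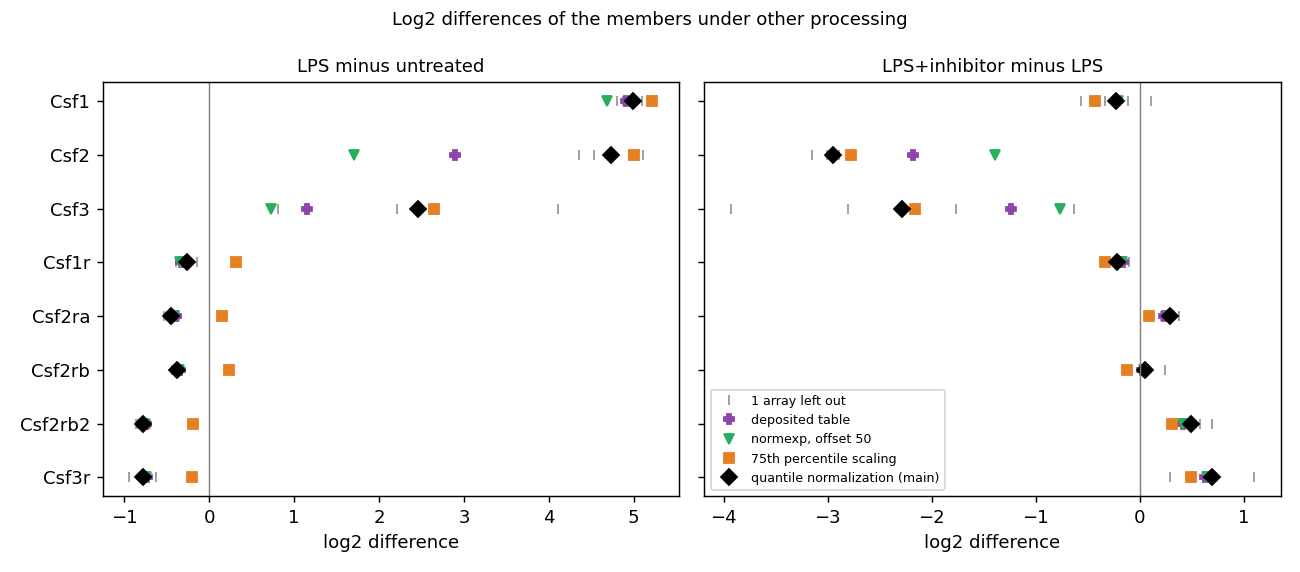
Log2 differences of the 8 genes in LPS minus untreated and LPS+inhibitor minus LPS under quantile normalization, 75th percentile scaling, normexp and the deposited table, and with 1 array left out at a time. The 75th percentile scaling carries Csf1r, Csf2ra and Csf2rb across 0 in LPS minus untreated, and the differences of the dim gene Csf2 are smaller with normexp, which was run with an added offset of 50.

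The genes that act with these factors were read from 5 lists holding 54 genes, of which 53 were found. Over all lists, 17 were called higher and 15 lower in LPS minus untreated, 8 higher and 11 lower in LPS+inhibitor minus LPS, and 10 higher and 13 lower in LPS+inhibitor minus untreated. Over all gene names, 7.98% were called higher and 12.8% lower in the first of these comparisons, 5.51% and 4.28% in the second, and 6.15% and 8.72% in the third. The list medians in those comparisons were 0.01, -0.19 and -0.01, beside medians over all gene names within 0.01 of 0. As for Csf2, 0 of the 19 calls in LPS+inhibitor minus LPS held with only the 4 arrays of those groups, where limma called 0 gene names, with 4333 higher and 3681 lower at unadjusted p under 0.05. The values below are therefore tied to the fit on 6 arrays.

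Among 9 partner ligands and receptors, 1 was called higher and 1 lower in LPS+inhibitor minus LPS, and 1 higher and 2 lower in LPS minus untreated. Of these 2, Il3 was well above background on 0 of 6 arrays, and its call held in 5 of 12 alternative settings. Il34, the second ligand of Csf1r, gave 3.64 and 3.65 untreated, 5.74 and 4.98 with LPS, and 3.08 and 2.45 with LPS+inhibitor, well above background in the LPS group alone. On the quantile-normalized scale, Il34 was at least 2.73-fold higher with LPS and at least 2.12-fold lower with the inhibitor (limma adjusted p = 0.0466 and 0.0322). Each call held in only 5 of 13 alternative settings, and with normexp the differences of Il34 were 0.43 and -0.48, below these bounds and with no call. Kitl, the ligand of the related receptor Kit, moved the other way. It was 7.98 and 7.88 untreated, 6.91 and 6.68 with LPS, and 8.96 and 9.07 with LPS+inhibitor, a rise of 2.22 over LPS (limma adjusted p = 0.0107) to above the untreated arrays. The list medians were 0.01 in LPS minus untreated and -0.23 in LPS+inhibitor minus LPS.

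Of 19 genes that carry the signal inside the cell, 7 were called higher and 5 lower after LPS, and 1 higher and 7 lower with the inhibitor. The list medians were 0.20 and -0.19. Jak2, the kinase bound to the beta chain, was 10.27 and 10.25 untreated, 14.25 and 14.14 with LPS, and 11.59 and 12.34 with LPS+inhibitor, which was 2.24 below LPS (limma adjusted p = 0.0268). Stat5a, the factor it activates, was 9.80 and 9.76, 12.98 and 12.89, and 10.33 and 10.90 in the same order, 2.32 lower with the inhibitor (limma adjusted p = 0.0178). Both lay between the untreated and the LPS arrays when the inhibitor was present. Stat5b, at 10.88 and 10.84 untreated, 11.74 and 11.59 with LPS, and 10.03 and 10.22 with LPS+inhibitor, ended below the untreated arrays (limma adjusted p = 0.0232).

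The Src-family kinase Lyn followed the pattern of rising with LPS and falling with the inhibitor. It was 8.21 and 7.95, 10.15 and 9.68, and 8.10 and 8.62 over the 3 groups. Its LPS+inhibitor minus LPS difference was -1.56 (limma adjusted p = 0.0499). Among the subunits of phosphatidylinositol 3-kinase, Pik3cd, the catalytic delta subunit, was lower with the inhibitor by -1.69 and the regulatory subunit Pik3r1 higher by 1.08 (limma adjusted p = 0.0184 and 0.0136). The exchange factor Sos1 was also called lower at -1.58 (limma adjusted p = 0.0159), but it stayed near background on all LPS and LPS+inhibitor arrays and turned to 0.46 in the deposited table. Of the genes not called with the inhibitor, Stat3 rose by 1.10 after LPS, while Fes and Plcg2 differed by -1.0 and -0.76 (limma adjusted p = 0.0235, 0.0127 and 0.00888). After 75th percentile scaling Fes differed by -0.44 and was still called, and Plcg2 by -0.16 with no call. The Stat3 call was lost in the fit with only the 4 arrays of these groups.

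The 11 negative regulators held the steepest rises of the lists. Socs3, a feedback inhibitor of JAK signalling, went from 8.70 and 8.10 untreated to 16.25 and 16.37 with LPS, and was 14.53 and 14.98 with LPS+inhibitor. Socs1 went from 7.66 and 7.52 to 15.02 and 15.05, and was 12.80 and 13.84 with the inhibitor. Cish, a target of STAT5, went from 6.07 and 6.26 to 12.56 and 13.42, and was 10.25 and 11.38 with the inhibitor. In all 3 the LPS+inhibitor arrays lay below the LPS arrays, yet LPS+inhibitor minus LPS, at -1.56, -1.72 and -2.17, did not pass the threshold (limma adjusted p = 0.0515, 0.0785 and 0.0912).

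In the list of negative regulators as a whole, 5 were called higher and 2 lower after LPS, and 2 higher and 2 lower with the inhibitor, with medians of -0.05 and -0.92. The phosphatase Ptpn6 (SHP-1) was 14.14 and 13.87 untreated, 13.58 and 13.50 with LPS, and 12.17 and 11.95 with LPS+inhibitor, 1 of 2 called lower, the other being Socs2 at -0.92 (limma adjusted p = 0.0181 and 0.0217). Socs2 had 4 probes, of which 1 was called. Inpp5d (SHIP1) and the adaptor Sh2b3 were lower after LPS, by -2.14 and -1.72, and slightly higher with the inhibitor than with LPS alone, by 0.53 and 0.52 (limma adjusted p = 0.0388 and 0.0350). After 75th percentile scaling the inhibitor difference of Inpp5d was 0.43 and was not called.

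Of the 7 survival and growth genes found, 2 were called higher and 2 lower after LPS, and 0 higher and 1 lower with the inhibitor, with medians of -0.05 and -0.23. Ccnd2, which encodes cyclin D2, was 8.53 and 8.49 untreated, 13.40 and 13.21 with LPS, and 10.02 and 10.07 with LPS+inhibitor. The LPS minus untreated difference of 4.79 and the LPS+inhibitor minus LPS difference of -3.26 were both called (limma adjusted p = 0.00184 and 0.00987), and its groups were far apart relative to the spread of their arrays. Of the others, the kinase gene Pim1 rose by 2.69 after LPS, and Ccnd1 and Mcl1 differed by -1.69 and -1.56 (limma adjusted p = 0.0133, 0.00858 and 0.00517). A second Mcl1 probe differed by only -0.32 and was not called (limma adjusted p = 0.0835).

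Of 7 transcription factors that bind the Csf1r gene, 2 were called higher and 4 lower after LPS, and 4 higher and 0 lower with the inhibitor. The list medians were -1.50 and 1.71, while Csf1r itself was called in neither comparison. Cebpa, a factor that sets up the myeloid lineage, was 11.14 and 11.05 untreated, 7.76 and 7.47 with LPS, and 10.79 and 10.18 with LPS+inhibitor, a difference of 2.87 from LPS (limma adjusted p = 0.0164). Runx1 was 10.79 and 10.75, 9.36 and 9.19, and 11.58 and 10.98, and Egr2 was 11.02 and 11.71, 9.71 and 9.63, and 11.47 and 11.32. By these probes both genes lay in the range of the untreated arrays or above it with the inhibitor, with differences from LPS of 2.0 and 1.73 (limma adjusted p = 0.0239 and 0.0372). A second Runx1 probe was called in the same directions but by 1.12 in LPS+inhibitor minus LPS, and stayed at -0.67 from the untreated level without a call (limma adjusted p = 0.0289 and 0.0628).

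Cebpb was level between the untreated arrays, 13.41 and 13.63, and the LPS arrays, 13.63 and 13.50, and stood at 14.59 and 14.41 with LPS+inhibitor (difference from LPS 0.94, limma adjusted p = 0.0307). Its LPS+inhibitor arrays thus lay above all others. The gene encoding PU.1 (Sfpi1 on the arrays) and Ets2 rose after LPS by 1.34 and 2.35 (limma adjusted p = 0.0162 and 0.0112).

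**Figure D5:**
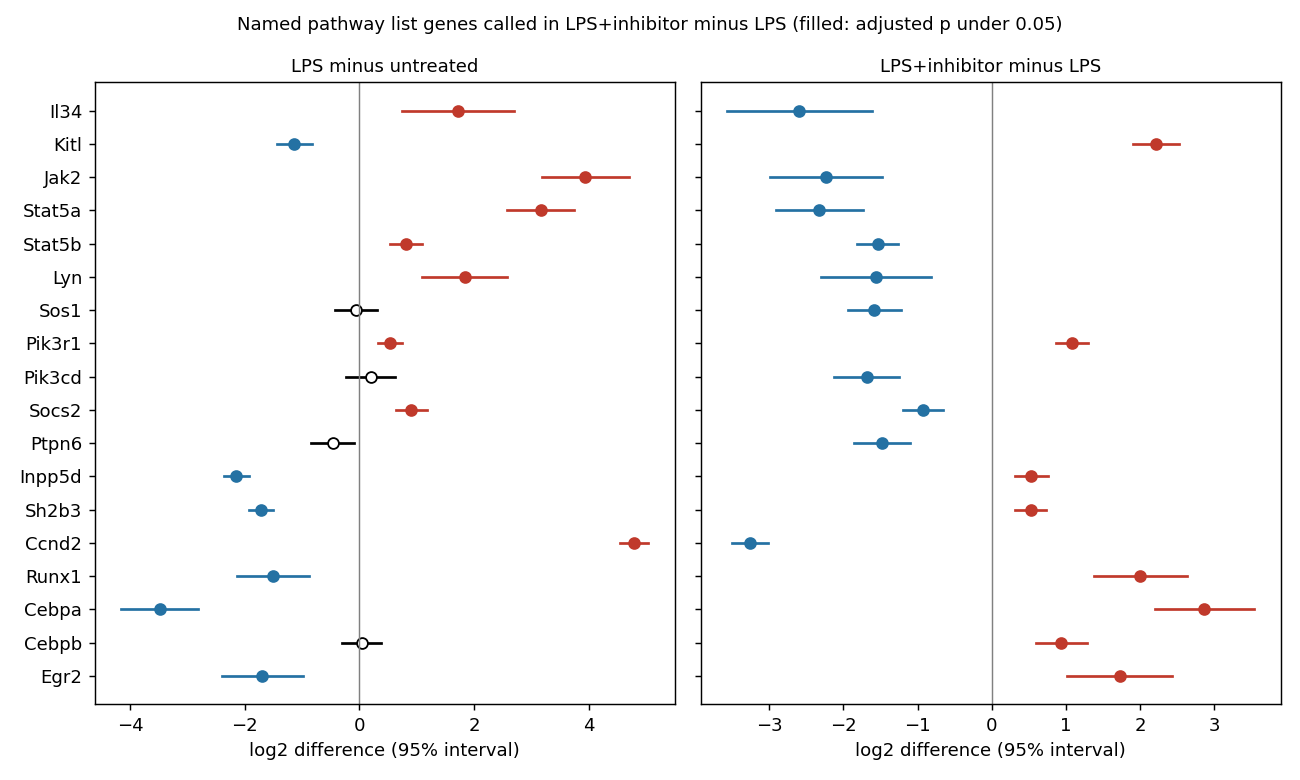
Log2 differences of the pathway list genes named in the text that were called in LPS+inhibitor minus LPS, with 95% confidence intervals from limma, in LPS minus untreated and in LPS+inhibitor minus LPS. Filled symbols mark adjusted p under 0.05, red for higher and blue for lower, and the LPS group enters both panels, so that the panels are not independent.

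The genes whose 6 values ran most like each member were found among 13109 candidates by the root mean square distance between log2 profiles, each centred on its own mean. For Csf1 they were Ccrl2, Tnfaip3 and Gm13889, at 0.19, 0.21 and 0.21 log2 units. Tnfaip3, which encodes the ubiquitin-editing protein A20, was 10.60 and 10.71 untreated, 15.53 and 15.56 with LPS, and 15.08 and 15.23 with LPS+inhibitor. These 3 genes were chosen for their likeness to Csf1, so their high values in both stimulated groups are no separate result. In LPS+inhibitor minus LPS they differed by -0.55, -0.39 and -0.05, without a call. For Csf2 they were Ccnd2, Lck and Bcl2a1c, a choice that is only approximate because Csf2 was near background on 3 of the 6 arrays. Lck was 6.87 and 6.91, 10.94 and 11.30, and 8.43 and 8.86 over the 3 groups. Its LPS+inhibitor arrays lay between the others, a likeness to Csf2 for which it was chosen. The receptor genes differed little between arrays, and their nearest profiles were at most 0.08 away, namely Syn1, Ccdc71 and Wdpcp for Csf1r, Elob, Gm14407 and Rps19 for Csf2ra, Phkg2, Shank1 and Ldah for Csf2rb, Zfp523, Ribc1 and Mfsd5 for Csf2rb2, and Utp6, Mtif2 and Pdcd4 for Csf3r. The 3 genes nearest Csf2ra, chosen for that likeness, were also called lower in LPS minus untreated (limma adjusted p = 0.0407, 0.0490 and 0.0375). They differed by -0.44, -0.44 and -0.46, in the order named. Csf3 was not compared, since no group had it above background in both replicates, as the LPS group did for Csf2.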

How the data were processed

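Gene expression was measured in 6 BMDM samples on single-colour Agilent 8x60K mouse arrays. The deposited scanner files hold the spot intensity that Feature Extraction 10.7.3.1 gave after background correction, and a deposited table holds the authors' log2 values of the same arrays (per the study's methods, quantile normalization in limma), whose background handling is not given in the sources used here. It correlated at 0.987 with the values computed here over all spots, and served as an alternative.

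Log2 processed signals of non-control spots were quantile-normalized (limma 3.58.1, R 4.3.3), spots flagged as outliers were removed, and spots of a probe averaged. Lowest and highest numbers of flagged spots per array were 119 and 172, and 0 spots were saturated. The 3 groups were fitted in 1 limma model with 3 residual degrees of freedom over 55680 probes, and 34843 gene names were tested by their brightest probe. A probe was taken as well above background when most of its spots carried the scanner's flag. Forcing 1 distribution on all arrays removes a global shift, so small differences depend on it. The number of arrays limits precision, and p-values measure the spread between 2 samples per group. All arrays lay on 1 slide in 1 scan, with the second position number on the slide following the treatment and the first following the replicate number, so position cannot be told apart from either. The labels give the LPS dose in different units in different places, and the methods give an older age range for the mice.

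Gene names are those of the array design, with PU.1 found as Sfpi1 and Adgre1 as Emr1, and Bcl2a1a was not found. RefSeq tables (GRCm38.p6) supplied promoters and current names, with 30581 of 55681 probes matched, and the arrays' positions are mm9. Named were the 8 members, pathway genes called in LPS+inhibitor minus LPS, up to 3 others per list with the largest called LPS change among probes well above background on both arrays of either group, and the 3 closest profiles per member, with some genes that meet this rule not reported here. The lists covered partner ligands and receptors, signal transduction, negative regulators, survival and growth genes, transcription factors of Csf1r, and markers of macrophages, neutrophils, dendritic cells, mast cells and basophils, lymphocytes, fibroblasts and erythroid cells. Members and lists were chosen with earlier results of these data known. The fit was tested on simulated data, with an outcome that is not reported here and on which no value above rests. Alternatives were 75th percentile scaling, normexp with offset 50, the deposited table, leaving out dim probes, the replicate number as a block, 4 arrays per fit, leaving out each array, and averaging a gene's probes.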

Additional observations from a re-analysis of the deposited data

How the results depend on the processing

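Csf1 and Csf2 were called higher in LPS minus untreated under all 13 alternatives. Members called lower in that comparison, 1 by quantile normalization, numbered 0 after 75th percentile scaling and in the deposited table, 2 with normexp and 2 with dim probes left out. Of all 34843 gene names, 4446 were called lower by quantile normalization, 4051 after the scaling, 3091 in the deposited table and 5323 with normexp. With dim probes left out 5198 of 18342 were, so these counts say nothing particular about the members. Members called lower in LPS+inhibitor minus LPS numbered 0 in the 4-array fit and 0 with any 1 array left out. In LPS+inhibitor minus untreated, members called higher numbered 1 with normexp, in the deposited table, in the 4-array fit and with any 1 array left out, and 1 was called lower with normexp. With replicate number as a replicate block, 2 members were called lower after LPS. Same-numbered arrays deviated together (r = 0.468, 0.398 and 0.422 over 20721 probes), but no label says what they share beyond the first position number on the slide, which equals the replicate number on every array. After 75th percentile scaling, which forces no common distribution, LPS minus untreated turned positive for Csf1r (0.31), Csf2ra (0.15) and Csf2rb (0.24). LPS+inhibitor minus LPS turned to -0.12 for Csf2rb, and LPS+inhibitor minus untreated to 0.24, 0.12, 0.13 and 0.29 for Csf2ra, Csf2rb, Csf2rb2 and Csf3r. There the median of all gene names, dim ones included, was 0.44, and relative to it these 4 stood at -0.20, -0.32, -0.31 and -0.15. Csf3, dim on 5 arrays, turned to -0.0394 (normexp) and -0.0887 (deposited table) in LPS+inhibitor minus untreated. With 1 array left out, values ran from -0.56 to 0.11 for Csf1 and -0.14 to 0.25 for Csf2rb in LPS+inhibitor minus LPS, and from -0.35 to 0.69 for Csf3 and -0.49 to 0.32 for Csf3r in LPS+inhibitor minus untreated. Gene names called higher rose from 2779 to 12184 in LPS minus untreated (38.5% to 75% of calls) and from 2144 to 12216 in LPS+inhibitor minus untreated (41.4% to 78.4%) after 75th percentile scaling, and names called lower in LPS+inhibitor minus LPS from 1490 to 2377 with normexp and 2366 with dim probes left out. The 4-array fit, with fewer degrees of freedom, called 0 in LPS+inhibitor minus LPS and 1347 higher and 1959 lower in LPS+inhibitor minus untreated, against 2144 and 3040. Leaving out 1 array gave 1142 to 2586 higher and 1647 to 4030 lower in LPS minus untreated, 0 to 1907 and 0 to 1188 in LPS+inhibitor minus LPS, and 476 to 1999 and 567 to 1959 in LPS+inhibitor minus untreated, a lone array being assumed to vary like the other groups. Counts over the pathway lists, added after seeing the data, ranged from 0 to 6 higher and 0 to 10 lower in LPS+inhibitor minus LPS with 1 array left out, against 8 and 11, and were 10 and 17 with normexp and 5 and 9 with the block. Of 309 member values under alternatives, 263 kept direction and call, 23 lost a call, 7 gained one and 16 changed sign. Signal over background limits Csf2 outside the LPS group and Csf3. Where not stated, the cause was not tested.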
